A study of Mus musculus with 6 samples.

Results

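The pentose phosphate pathway and its cytosolic companions were followed as 9 enzymes in the transcriptome of mouse astrocytes: G6pdx, Pgls and Pgd of the oxidative branch, Rpe, Rpia, Tkt and Taldo1 of the non-oxidative branch, and the NADPH-producing dehydrogenases Me1 and Idh1. The genes were chosen by symbol, for their place in metabolism, and all 9 were found among the 17193 genes with a row in the files. Microbeads against the astrocyte surface antigen ACSA-2 had been used to isolate the cells from brain tissue of wild-type C57BL/6 mice, 3 months old, that were either mock-treated or given quinpirole, an agonist of the dopamine receptor DRD2, with 3 libraries per group. The labels name no transgene or deletion in either group, and the sources used here did not state the dose or duration of quinpirole for the sequenced animals, or whether each library came from a separate mouse, so p-values measure the spread between these libraries. Poly(A) RNA was sequenced, and 1 FPKM value per gene and library was deposited, that is, mapped fragments scaled to transcript length and to sequencing depth, a unit in which levels of different genes can be set side by side.

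The oxidative branch turns glucose-6-phosphate into ribulose-5-phosphate and reduces NADP at both of its dehydrogenase steps. The non-oxidative branch reshuffles the resulting sugars, so that they can serve nucleotide synthesis or return to glycolysis. NADPH keeps glutathione and thioredoxin reduced and pays for fatty acid and sterol synthesis. Astrocytes are known for an active pathway and for supplying neurons with glutathione precursors, and several of these enzymes are textbook targets of Nrf2, a transcription factor that binds antioxidant response elements as a dimer with small Maf proteins. The question put to the data was whether the transcripts of these enzymes differed between mock-treated and quinpirole-treated mice.

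The antioxidant response element is the sequence through which Nrf2 acts, so its core, TGACNNNGC, was looked for on both strands in RefSeq promoter windows of the 9 genes, which run from 250 bases before to 50 bases after an annotated transcription start (GRCm38.p6). The 9 genes had 12 such windows, since Pgd, Me1 and Idh1 have 2 annotated starts each. The main windows of G6pdx and Me1 hold the core, and that of Taldo1, printed because its groups differed most clearly, does not. They are shown 5′ to 3′ in the direction of transcription, with the core in capitals.
G6pdx (chrX:74428831-74429130, minus strand): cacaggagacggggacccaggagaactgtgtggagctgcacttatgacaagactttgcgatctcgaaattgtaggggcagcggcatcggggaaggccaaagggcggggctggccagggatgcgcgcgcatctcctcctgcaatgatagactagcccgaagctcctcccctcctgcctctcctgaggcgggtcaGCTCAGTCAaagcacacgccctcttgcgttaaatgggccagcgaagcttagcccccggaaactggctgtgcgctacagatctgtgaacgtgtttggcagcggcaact
Me1 (chr9:86695865-86696164, minus strand): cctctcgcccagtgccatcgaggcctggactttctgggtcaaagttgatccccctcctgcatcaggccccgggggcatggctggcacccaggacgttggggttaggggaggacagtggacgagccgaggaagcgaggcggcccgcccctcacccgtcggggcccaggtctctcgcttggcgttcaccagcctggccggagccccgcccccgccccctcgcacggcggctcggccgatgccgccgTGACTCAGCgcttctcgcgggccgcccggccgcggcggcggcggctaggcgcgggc
Taldo1 (chr7:141391910-141392209, plus strand): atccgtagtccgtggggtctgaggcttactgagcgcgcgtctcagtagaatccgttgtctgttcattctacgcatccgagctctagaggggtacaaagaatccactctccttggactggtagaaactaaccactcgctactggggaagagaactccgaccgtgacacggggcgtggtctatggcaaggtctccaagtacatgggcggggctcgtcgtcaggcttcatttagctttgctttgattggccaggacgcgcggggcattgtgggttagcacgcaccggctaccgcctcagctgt
In G6pdx the core was read on the strand opposite to the gene, with its first printed base 57 bases upstream of the start, and in Me1 on the gene's own strand, 6 bases upstream. One further match, TGACATTGC, lay 3 bases downstream of the second start of Pgd. The other windows held none. For comparison, 4071 of 32851 promoter windows of the same length in the genome, 12.4%, held the same core. A match describes the letters and does not show that the site is used. Most windows lack the core, and its absence from 300 bases does not show that a gene has no such element elsewhere. Whether these matches bear on the differences between the groups was not tested. Of other promoter motifs, the GC box GGGCGG, present in 35.7% of all windows on either strand, occurred in a window of each of the 9 genes, the CCAAT box (37.4% of all windows) occurred in windows of Pgd, Rpe, Taldo1, Me1 and Idh1, and the TATA box TATAAA (13.6% of all windows) occurred in none.

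All 9 enzymes passed the filter of a mean of at least 1 FPKM, and together they took 0.131% ± 0.00316 (SD, n = 3) of the summed FPKM of mock libraries and 0.134% ± 0.00785 (SD, n = 3) of that of quinpirole libraries. Taldo1 was the most abundant, with more FPKM than 96.6% of the 12255 tested genes, and Rpia the least, with more than 28.8% of them. The order of mean levels was the same in both groups: Taldo1, Tkt, Pgd, Pgls, G6pdx, Me1, Idh1, Rpe and Rpia. In each group the library ranges of neighbours were apart between Taldo1 and Tkt, between G6pdx and Me1, between Idh1 and Rpe and between Rpe and Rpia. The neighbours from Tkt down to G6pdx overlapped in turn, as did Me1 and Idh1, so their order is not resolved by 3 libraries. In mock libraries the mean of Taldo1 was 1.62 times that of Tkt. The enzymes that feed the non-oxidative branch, Rpe and Rpia, were the least abundant members in every library.

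**Figure D1:**
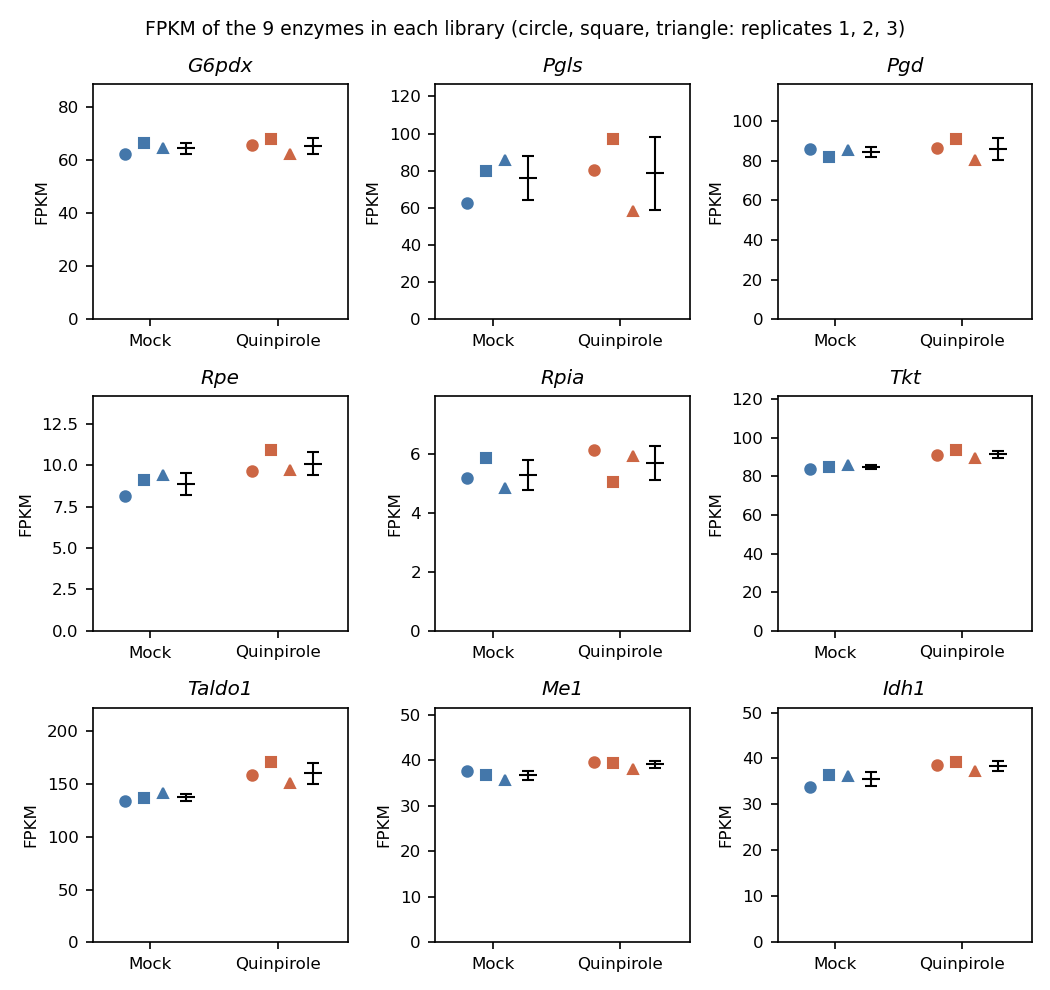
FPKM (y axis of each panel, starting at 0) of the 9 enzymes in the 3 mock (blue) and 3 quinpirole (orange) libraries, with circles, squares and triangles for replicates 1, 2 and 3 and black bars for the mean ± SD. The groups lay apart for Rpe, Tkt, Taldo1, Me1 and Idh1 and overlapped for the other 4, and Pgls spread most, from 58.2 to 97.2 FPKM.

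Of the 9 enzymes, 1 was past the threshold of an adjusted p of 0.05 (limma on log2(FPKM + 1), Benjamini-Hochberg adjustment over all 12255 tested genes). This was Taldo1, which was higher after quinpirole. Among all tested genes, 704 were higher, which is 5.74%, and 635 were lower, 5.18%, so 1 of 9 is near the share of 10.9% in either direction. The 9 fitted changes were all above 0. Their median was 0.09 on the log2 scale, where the median over all tested genes was 0.015, with 6593 genes above 0 and 5662 below. In 5 of the 9 every quinpirole library exceeded every mock library, an arrangement found in 20.0% of all tested genes, and no member showed the opposite arrangement, which was found in 16.9% (36.9% for both). At an unadjusted p under 0.05, 3 of 9 members were counted, Tkt, Taldo1 and Idh1, near the share of all tested genes at that level, 3839 or 31.3%.

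No gene of the oxidative branch passed the test. G6pdx (ENSMUSG00000031400, chromosome X, 74409483 to 74429194, GRCm38) encodes glucose-6-phosphate dehydrogenase, the entry and rate-limiting enzyme. It had 62.4, 66.6 and 64.6 FPKM in the mock libraries and 65.6, 68.1 and 62.3 FPKM in the quinpirole libraries. The groups overlapped, both the lowest and the highest value being those of quinpirole libraries. Quinpirole minus mock came to 0.02 on the log2 scale (SE 0.046, 95% interval -0.09 to 0.12, adjusted p = 0.829), so a rise of over 0.12 or a fall of over 0.09 on the log2 scale lies outside the interval. Quantile normalization, or a correction for transcript length, turned this small value to -0.04.

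Pgd (chromosome 4, 149149991 to 149166771), whose product, 6-phosphogluconate dehydrogenase, carries out the second NADP-reducing step, had 85.8, 81.7 and 85.6 FPKM in mock and 86.6, 91.1 and 80.2 FPKM in quinpirole libraries. The third quinpirole library lay below all mock libraries and the other 2 above them. The fitted log2 fold change was 0.03 (SE 0.052, 95% interval -0.10 to 0.15, adjusted p = 0.771), and it was -0.04 after quantile normalization.

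Pgls (chromosome 8, 71592176 to 71601092) encodes 6-phosphogluconolactonase, which opens the lactone between the dehydrogenase steps, and was the least reproducible member. It had 62.8, 79.9 and 85.5 FPKM in mock libraries and 80.2, 97.2 and 58.2 FPKM in quinpirole libraries, so that the quinpirole libraries held both extremes. The coefficient of variation was 15.5% in mock and 24.9% in quinpirole libraries. At the estimated depth, counting error alone would give at most 1.43%, taking the 3770 bases of all joined exons as the length of Pgls. Its SD within groups on the log2 scale, 0.307, exceeded that of 98.3% of 1618 genes of like level (within 2-fold), whose median was 0.056, whereas Tkt, at 0.025, exceeded only 8.69% of genes of its level. Its log2 fold change of 0.03 accordingly had a 95% interval from -0.41 to 0.46 (adjusted p = 0.937), too wide to show either a change or its lack. It ranged from -0.14 without quinpirole replicate 2 to 0.22 without quinpirole replicate 3. An exon overlap on the same strand with Fam129c covers 20.6% of the exonic bases of Pgls, but Fam129c itself had at most 0.821 FPKM.

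The non-oxidative branch held the one called member. Taldo1 (ENSMUSG00000025503, chromosome 7, 141392199 to 141402968) encodes transaldolase, which moves carbon units between sugar phosphates and links the pathway back to glycolysis. It had 134, 137 and 141 FPKM in mock libraries and 158, 171 and 151 FPKM in quinpirole libraries. The lowest quinpirole library lay above the highest mock library, and the mean was 16.6% higher, at 137 ± 3.40 (SD, n = 3) against 160 ± 9.93 FPKM (SD, n = 3). The log2 fold change was 0.22 (SE 0.050, 95% interval 0.10 to 0.34, adjusted p = 0.0399 from limma). In RNA from a mixture of cells, a change in the number of cells of a type and a change in RNA per cell cannot be told apart.

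The rise of Taldo1 was close to the threshold. Its log2 fold change lay between 0.17 and 0.26 when each library was left out in turn, but the adjusted p then ran from 0.05 without mock replicate 3 to 0.123 without mock replicate 2, and with no library left out it was 0.121 after quantile normalization, where the change was 0.11. Taldo1 also has the shortest exonic sequence of the 9 genes, 2171 bases in GENCODE M21, and changes moved with length over all genes. When genes were split into 5 classes of length, the class of the shortest, which holds Taldo1, had a median change of 0.12 on the log2 scale and the class of the longest had -0.11. With the length trend of each library taken out, the change of Taldo1 was 0.13 (adjusted p = 0.0945). The processed pseudogene Gm17823 shares 10.9% of the 50-base words of its longest transcript and has no row in the files used here.

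Tkt (chromosome 14, 30548359 to 30574720), the thiamine-dependent transketolase that works beside transaldolase, had 83.8, 84.8 and 86.0 FPKM in mock libraries and 90.9, 93.5 and 89.6 FPKM in quinpirole libraries. The groups lay apart, with the tightest replicates of any member. Its fitted log2 fold change was 0.10 (SE 0.034, 95% interval 0.03 to 0.18), with an adjusted p of 0.0838, which misses the threshold. Tkt has a long exonic sequence, 7355 bases, in the class of length whose median change was -0.03, and after the length correction its change was 0.16 (adjusted p = 0.0598), while after quantile normalization it was 0.03.

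Rpe (chromosome 1, 66700831 to 66719805), ribulose-phosphate epimerase, had 8.13, 9.10 and 9.40 FPKM in mock and 9.64, 10.9 and 9.71 FPKM in quinpirole libraries. Every quinpirole library was above every mock library by a small margin, and the log2 fold change of 0.17 (SE 0.072) had an adjusted p of 0.162. After the length correction the change of Rpe was 0.11, and after quantile normalization it was 0.18. Its exons share 558 bases, 17.9% of the total, with Kansl1l on the opposite strand, and the library kit as described does not mark strand, so reads from that stretch could belong to either gene. Kansl1l had between 2.34 and 2.90 FPKM. Rpia (chromosome 6, 70765720 to 70792232), ribose-5-phosphate isomerase, which makes the ribose for nucleotides, had 5.20, 5.85 and 4.85 FPKM in mock and 6.13, 5.05 and 5.94 FPKM in quinpirole libraries. These groups overlapped, and the log2 fold change of 0.09 had a 95% interval from -0.12 to 0.30 (adjusted p = 0.527).

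The cytosolic dehydrogenases outside the pathway were apart between the groups by small amounts. Me1 (chromosome 9, 86581371 to 86695953), malic enzyme, which makes pyruvate from malate, had 37.6, 36.8 and 35.7 FPKM in mock and 39.7, 39.5 and 38.2 FPKM in quinpirole libraries. The mean was 6.55% higher after quinpirole, and the log2 fold change was 0.09 (SE 0.038, adjusted p = 0.161). Of the 50-base words in the longest Me1 transcript, 32.8% recur in transcripts of other genes, chiefly Gm7049, so the level of Me1 depends on how such reads were assigned. Idh1 (chromosome 1, 65158616 to 65186500), the cytosolic isocitrate dehydrogenase, had 33.8, 36.5 and 36.3 FPKM in mock and 38.6, 39.3 and 37.2 FPKM in quinpirole libraries. Its mean was 7.96% higher, with a log2 fold change of 0.11 (SE 0.045, adjusted p = 0.151), and none of its words recur elsewhere. After the length correction the change was 0.06 for Me1 and 0.04 for Idh1. Quantile normalization gave 0.04 for Me1 and 0.06 for Idh1. Neither gene passed the test.

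**Figure D2:**
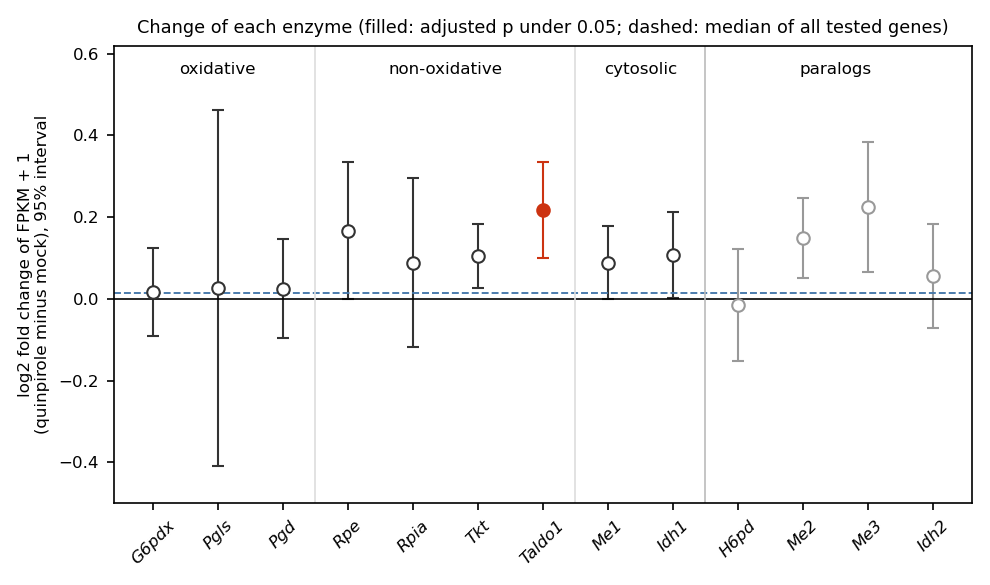
The log2 fold change of FPKM + 1 (quinpirole minus mock, y axis) with its 95% interval from limma for the 9 enzymes, by branch, and for 4 expressed paralogs in grey. The filled red point is Taldo1, at 0.22 with an adjusted p of 0.0399, the other points are open because they missed the threshold, and the dashed line marks the median of all tested genes, 0.015.

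Summed over a branch, the 3 oxidative enzymes had 211, 228 and 236 FPKM in mock and 232, 256 and 201 FPKM in quinpirole libraries. The 4 non-oxidative enzymes had 231, 237 and 241 FPKM in mock and 265, 280 and 256 FPKM in quinpirole libraries, and Me1 and Idh1 together had 71.4, 73.4 and 72.0 against 78.3, 78.7 and 75.4 FPKM. The oxidative sums overlapped and carried the spread of Pgls, while both other sums were higher in each quinpirole library than in any mock library. The FPKM total of all genes lay apart in the same direction, at 401769 to 413730 in mock and 425244 to 437164 in quinpirole libraries. As a share of that total, all members together overlapped between the groups, at 0.128% to 0.134% in mock and 0.125% to 0.141% in quinpirole libraries. This pooled share includes the spread of Pgls, and it does not show whether the share of a single branch overlapped. The part of the offset in the FPKM total in the differences of single enzymes and branches was not tested. The non-oxidative sum consists mostly of Taldo1 and Tkt.

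To set the enzymes against the entry step within a library, each FPKM value was divided by that of G6pdx in the same library, a comparison added after the values had been seen. Taldo1 stood at 2.15, 2.05 and 2.18 times G6pdx in mock and at 2.41, 2.5 and 2.42 times in quinpirole libraries, a difference of 0.20 on the log2 scale. Tkt stood at 1.34, 1.27 and 1.33 times G6pdx in mock and at 1.39, 1.37 and 1.44 times in quinpirole libraries. The groups lay apart for 4 of the 8 ratios, those of Rpe, Tkt, Taldo1 and Idh1, with quinpirole above in each. Over all other tested genes, 14.4% had a ratio to G6pdx that lay apart with quinpirole above and 14.4% with quinpirole below. By a two-sided exact permutation test these 4 ratios each had p = 0.10 (adjusted p = 0.20 over 8 ratios), the smallest p that 3 libraries against 3 allow, so no ratio could pass 0.05. For Pgls and Pgd the mean ratio was nearly the same in both groups, 1.18 ± 0.159 against 1.19 ± 0.247 and 1.31 ± 0.0767 against 1.31 ± 0.0254 (SD, n = 3).

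**Figure D3:**
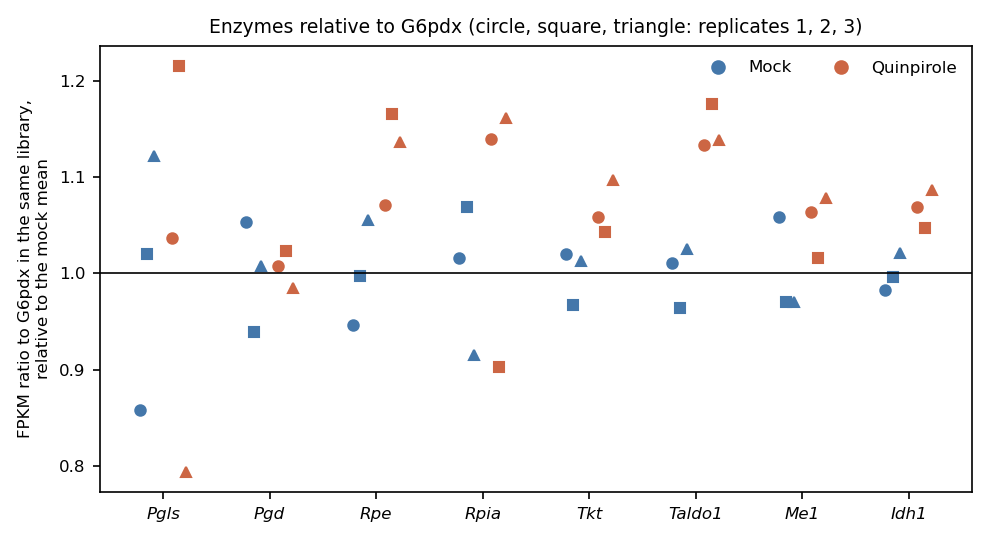
FPKM of 8 enzymes divided by that of G6pdx in the same library and by the mock mean of that ratio (y axis, 1 = mock mean; the axis does not start at 0), with mock libraries in blue, quinpirole libraries in orange and circles, squares and triangles for replicates 1, 2 and 3. Quinpirole points lie above all mock points for Rpe, Tkt, Taldo1 and Idh1 and the groups overlap for Pgls, Pgd, Rpia and Me1.

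Across the 6 libraries, the members varied together in part. Pearson's r on log2(FPKM + 1) was 0.99 between Tkt and Taldo1, and also 0.99 when each group's mean was first removed, while G6pdx and Pgls had 0.92 by both. Rpia ran against most others within groups, with r of -0.71 to Tkt and -0.70 to Taldo1. These values describe 6 points that share library and depth, and genes are not independent replicates. The tested genes whose profile was most like that of G6pdx were Hsd3b7 (r = 0.990 over 6 libraries), Anapc2 (0.989) and Rnf135 (0.989). Anapc2, for example, had 70.0, 71.5 and 70.6 FPKM in mock and 71.3, 72.2 and 70.1 FPKM in quinpirole libraries, the same ups and downs on a smaller scale. Ikbkg, which overlaps 13.6% of the exonic bases of G6pdx from the opposite strand, ran the other way, with 20.8, 18.9 and 15.6 FPKM in mock and 19.2, 15.1 and 22.3 FPKM in quinpirole libraries, and in these unstranded libraries reads of the shared stretch cannot be assigned to one or the other.

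Paralogs of the members were mostly silent or of mitochondrial address. G6pd2, an intronless copy of G6pdx, had 0.0121 FPKM in mock replicate 1 and was listed at 0 in the other 5 libraries, and Tktl1 did not exceed 0.0153 FPKM, so both lay far below G6pdx and Tkt. No row in the files used here was matched to Tktl2. H6pd, the counterpart of the oxidative enzymes in the endoplasmic reticulum, had 9.45 ± 0.439 FPKM (SD, n = 3) in mock and 9.35 ± 0.485 FPKM in quinpirole libraries. The mitochondrial malic enzymes lay apart between the groups: Me2 had 25.0, 26.2 and 26.6 FPKM in mock and 28.0, 29.2 and 29.3 FPKM in quinpirole libraries, and Me3 had 4.09, 3.87 and 3.98 against 5.26, 4.69 and 4.54 FPKM. Neither passed the threshold, with log2 fold changes of 0.15 (adjusted p = 0.0615) and 0.22 (adjusted p = 0.0708), although Me3 did after the length correction (0.40, adjusted p = 0.0374). Idh2, the mitochondrial counterpart of Idh1, was far more abundant than it, at 220 ± 14.8 FPKM in mock and 228 ± 7.43 FPKM in quinpirole libraries (SD, n = 3), and overlapped between the groups.

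The wider list of 13 other producers of NADPH and NADP, which includes H6pd, Me2, Me3 and Idh2, the transhydrogenase Nnt, the folate dehydrogenases and the NAD kinases, had 0 members past the threshold by limma in either direction, and 4 of 13 at an unadjusted p under 0.05, beside the 31.3% of all tested genes. Its median log2 fold change was 0.045. Nnt, which regenerates NADPH in mitochondria, had 27.8 ± 0.865 FPKM in mock and 26.7 ± 1.12 FPKM in quinpirole libraries (SD, n = 3).

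Of 17 tested genes at the entry to and exit from the pathway, 1 was higher after quinpirole and none was lower, near the shares of 5.74% and 5.18% over all genes, with a median log2 fold change of 0.05. The gene that rose was Gpi1, glucose phosphate isomerase, which converts the substrate of G6pdx into that of glycolysis. It had 263, 275 and 272 FPKM in mock libraries and 295, 306 and 297 FPKM in quinpirole libraries, with no overlap, and its log2 fold change was 0.15 (SE 0.035, adjusted p = 0.0420). As with Taldo1, no fit that left out 1 library kept this call (adjusted p from 0.0558 to 0.122), and after quantile normalization the change was 0.03. The glucose transporter Slc2a1 had 103 ± 5.22 FPKM in mock and 97.3 ± 3.03 FPKM in quinpirole libraries, and the hexokinases Hk1 and Hk2 had 46.7 ± 6.97 against 48.1 ± 1.5 and 16.5 ± 1.27 against 15.7 ± 0.734 FPKM (SD, n = 3). None of these passed the test.

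Among the consumers of NADPH, of 25 tested reductases and oxidases, 3 were higher and 1 lower after quinpirole, which is 4 of 25 beside the 10.9% of all genes, and the median log2 fold change was 0.09. Nqo1, quinone reductase, had 5.59, 5.54 and 5.33 FPKM in mock and 7.44, 6.97 and 7.41 FPKM in quinpirole libraries, and rose by 0.35 on the log2 scale (SE 0.055, adjusted p = 0.0236). Gsr, glutathione reductase, which spends NADPH to recycle oxidized glutathione, had 18.2, 18.6 and 18.7 against 22.5, 21.3 and 21.8 FPKM, and rose by 0.23 (SE 0.041, adjusted p = 0.0251). Qdpr, which restores tetrahydrobiopterin and is better known for using NADH, had 39.6, 38.2 and 41.5 against 47.0, 45.9 and 44.6 FPKM, and rose by 0.20 (SE 0.044, adjusted p = 0.0353).

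The lower gene was Fasn, fatty acid synthase, a main user of NADPH in lipid synthesis. It had 56.9, 57.9 and 58.6 FPKM in mock and 42.6, 38.9 and 44.2 FPKM in quinpirole libraries, and its log2 fold change was -0.46 (SE 0.052, adjusted p = 0.0215). Txnrd1, the cytosolic thioredoxin reductase, had 62.0 ± 1.79 FPKM in mock and 66.9 ± 1.00 FPKM in quinpirole libraries (SD, n = 3) and missed the threshold (0.11, adjusted p = 0.0949), which it passed after the length correction (0.15, adjusted p = 0.0453). The calls of the list depended on single libraries. It had 0 calls without mock replicate 1, mock replicate 2 or quinpirole replicate 1, 1 call without quinpirole replicate 2 or quinpirole replicate 3, and 4 without mock replicate 3. With the length correction Gsr, Nqo1 and Qdpr missed the threshold (adjusted p of 0.0699, 0.0798 and 0.153).

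Nrf2 itself, encoded by Nfe2l2, had 93.9, 97.8 and 103 FPKM in mock and 103, 102 and 103 FPKM in quinpirole libraries (log2 fold change 0.07, adjusted p = 0.288), and its repressor Keap1 had 28.2 ± 0.996 against 28.0 ± 2.34 FPKM (SD, n = 3). Of the partners and competitors at antioxidant response elements, Maff rose from 50.5 ± 1.51 to 58.0 ± 1.04 FPKM (log2 fold change 0.20, adjusted p = 0.0278) and Mafg fell from 22.9 ± 0.870 to 17.8 ± 0.797 FPKM (-0.34, adjusted p = 0.0225; SD, n = 3). Both calls were lost in 5 of the 6 fits that left out 1 library (adjusted p up to 0.0931 for Maff and 0.0906 for Mafg), and that of Maff also with quantile normalization (0.0647), eBayes without trend (0.0520) and the length correction (0.114). Mafk (log2 fold change -0.01, adjusted p = 0.883) and Bach1 (-0.17, adjusted p = 0.107) did not pass the test. Bach1 was below mock in every quinpirole library, at 5.42 ± 0.282 against 4.71 ± 0.164 FPKM (SD, n = 3).

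The depth behind these values, read from the smallest steps between low FPKM values, came to an estimated 22300000 to 27600000 fragments per library, lowest in quinpirole replicate 3, and the summed FPKM ran from 401769 to 413730 in mock and from 425244 to 437164 in quinpirole libraries. At this depth the rarest member, Rpia, rested on an estimated 666 to 881 fragments per library. This takes the joined exons of all transcripts, 5359 bases, as its length. The longest Rpia transcript has 3644 bases, and a shorter length would give fewer fragments. Scaling each library to a common median ratio lowered every member change a little. On the log2 scale Taldo1 went from 0.218 to 0.205 and G6pdx from 0.017 to 0.004. Astrocyte markers were present, Gfap with 482 to 560 FPKM over the 6 libraries and Aldoc with 293 to 348 FPKM, although the glutamate transporter Slc1a2 had only 5.15 to 8.55 FPKM. Of 12 astrocyte markers, 3 were lower after quinpirole and 0 higher, where all genes gave 5.18% and 5.74%: Slc1a2, Slc4a4 and Atp1b2, the gene of the antigen used for isolation, with 174 to 180 FPKM in mock and 148 to 160 FPKM in quinpirole libraries. Of the 12, 6 had an unadjusted p under 0.05 by limma, all lower (31.3% over all genes). For 5 of the 12, every quinpirole library was below every mock library (16.9% over all genes). The opposite arrangement was found in 0 of them (20.0% over all genes). The summed level of the 12 was 1560 to 1710 FPKM in mock and 1530 to 1560 FPKM in quinpirole libraries.

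The marker sums of some other cells lay apart between the groups. The sum of 8 microglial markers was 453 to 475 FPKM in mock and 480 to 514 FPKM in quinpirole libraries, with 0 of 8 called by limma and 4 at an unadjusted p under 0.05 (31.3% over all genes). These 4 went both ways, with Cx3cr1 (log2 fold change -0.12) and Csf1r (-0.16) below and Aif1 (0.22) and C1qa (0.21) above mock in every quinpirole library, and C1qa, at 206 against 238 FPKM on average, carried most of the difference in the sum. The sum of 9 neuronal markers was 70.8 to 76.2 FPKM against 82.7 to 89.3 FPKM, carried by Stmn2, the one called of 2 tested, while Snap25 did not exceed 0.0773 FPKM. The sum of 6 mural markers was 2550 to 2720 against 2730 to 2900 FPKM, nearly all of it Acta2, and of the 2 tested 1 was called, Pdgfrb, which was lower. The oligodendrocyte, endothelial and ependymal sums overlapped between the groups, at 158 to 178, 46.4 to 49.6 and 154 to 169 FPKM over all libraries. Most of each sum was 1 gene: Cnp with 151 to 171 FPKM, Slco1a4 with 44.4 to 47.6 FPKM and Foxj1 with 118 to 130 FPKM. Of their markers, 4, 2 and 4 reached the filter of 1 FPKM and were tested, and none was called. The 3 precursor markers summed to 2.24 to 2.92 FPKM in mock and 1.84 to 2.05 FPKM in quinpirole libraries. Only Cspg4 of these was tested, and it missed the threshold. The part of these cells in the change of Taldo1 and of the other enzymes was not tested.

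**Figure D4:**
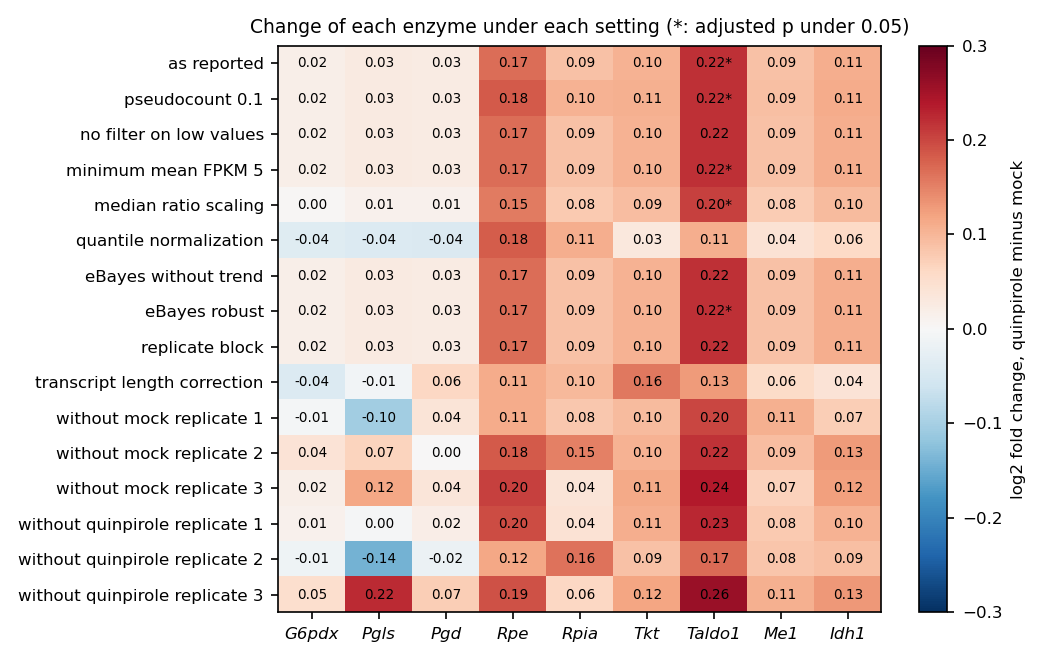
The log2 fold change (colour and printed value, quinpirole minus mock) of each of the 9 enzymes (columns) in the reported fit and under each alternative setting (rows), with an asterisk where the adjusted p was under 0.05. Asterisks appear for Taldo1 alone, in the reported fit and in 4 alternatives, and Rpe, Rpia, Tkt, Taldo1, Me1 and Idh1 stay above 0 in every row, whereas G6pdx, Pgls and Pgd change sign in some.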

How the data were processed

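Poly(A) RNA from ACSA-2-isolated astrocytes of 3 mock and 3 quinpirole libraries was prepared with an Illumina kit of the NEBNext Ultra type, per the labels. The authors trimmed and mapped the reads with TopHat2 to GRCm38 (per the submitters' processing notes, which give no version) and deposited FPKM values, 1 per gene and library. The program behind the FPKM values, its annotation and its handling of shared reads and strand are not given in the sources used here. No counts were used, so depth was estimated from low values of 1254 genes with 1 transcript of at least 2000 bases. In each library 58.7% to 66.7% of these values fell on whole fragments to a tolerance of 0.1, where chance gives 20%, which is too few to recover reads.

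Identifiers were matched to symbols (17090 of 17193). Values were tested as log2(FPKM + 1) for the 12255 genes averaging 1 FPKM or more, with limma 3.58.1 in R 4.3.3 (lmFit, eBayes with trend, two-sided, Benjamini-Hochberg, threshold 0.05). Fold changes are on this scale and understate changes of weakly expressed genes. Lengths, exon overlaps and 50-base words came from GENCODE M21, and the length correction was a loess fit (span 0.3) per library, which would also remove a true change related to length. Promoters came from RefSeq.

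The members, lists and tests were chosen with earlier results of these data known. Named genes were the members, their paralogs, the called genes and at most 5 others of each list in list order, and the 3 genes most correlated with G6pdx. One further marker gene is not reported here. Alternatives were no filter, a filter at 5 FPKM, a pseudocount of 0.1, median ratio and quantile scaling, other variance models, a replicate block, the length correction and the omission of each library. The rest was done in Python 3.11.15 with pandas 2.3.3, numpy 2.4.6, matplotlib 3.10.9 and scipy 1.17.1.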

Additional observations from a re-analysis of the deposited data

How the results depend on the processing

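The number of members past the threshold, 1, was 0 with no filter on low values, quantile normalization, eBayes without trend, the length correction, the replicate block, and in each fit without 1 library (0 to 0), and it stayed 1, Taldo1, under the other 4 settings. Over all genes, 1339 were past the threshold, against 633 with no filter (329 higher, 304 lower), 783 with quantile normalization (283 and 500), 714 with eBayes without trend (293 and 421), 509 with the length correction (256 and 253) and 2 with the replicate block (3308 at an unadjusted p under 0.05), and without 1 library between 3 (without mock replicate 2) and 1182 (without mock replicate 3). With median ratio scaling 580 were higher and 693 lower. The cause was not tested. Same-numbered libraries did not deviate together (correlations of 0.03, -0.07 and -0.10), and no mock library correlated best with the quinpirole library of its own number. With so few libraries, such values cannot tell whether same-numbered samples were handled as pairs. With the replicate block, 0 entry and exit genes and 0 reductases were past the threshold. The entry and exit list had 0 also with no filter, quantile normalization, eBayes without trend and in each fit without 1 library (0 to 0). The reductases had 2 with the length correction and 0 to 4 without 1 library, and the other producers had 1 with the length correction and 0 to 0 without 1 library.

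Signs turned for small changes that had not passed the test. With quantile normalization the log2 fold change was -0.04 for G6pdx, -0.04 for Pgls, -0.04 for Pgd, 0.00 for H6pd, -0.06 for Idh2, 0.00 for Hk1 and -0.01 for Nfe2l2, and with the length correction it was -0.04 for G6pdx, -0.01 for Pgls and -0.02 for Idh2. Without 1 library the range was -0.01 to 0.05 for G6pdx, -0.14 to 0.22 for Pgls, -0.02 to 0.07 for Pgd, -0.05 to 0.02 for H6pd, -0.08 to 0.12 for Hk1 and -0.07 to 0.03 for Keap1. Of 135 values of the 9 members under alternatives, 113 kept direction and side of the threshold, 11 (all of Taldo1) kept direction and missed it, and 11 changed sign. The log2 change of the ratio of Taldo1 to G6pdx ranged from 0.18 to 0.22 without 1 library.

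Among members whose groups lay apart, differences of 6.55% (Me1) to 13.6% (Rpe) between group means did not pass the adjusted test, and the interval of Pgls was the widest of the 9.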
